A study of Mus musculus with 3 samples.

Results

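Fibroblasts in which no Postn transcript was counted were compared between 3 libraries of droplets from mouse ventricles. A droplet barcode was taken as such a fibroblast by its UMIs (unique molecular identifiers, 1 for each RNA molecule counted). The sum F over Pdgfra, Dcn, Col1a2, Abca8a, Tcf21 and Dpt had to reach 4 UMIs and 2 times the sum over the vessel, macrophage and pericyte genes Ptprb, Pecam1, Csf1r, Mrc1 and Abcc9. The muscle gene Ttn had to stay under 1% of UMIs and Postn at 0. The further limits were at most 1 UMI in Thbs4 and Comp together, at most 4 in the adventitial genes C7, Scara5, Gfpt2 and Pi16 together, and at most 1 in Grm8. The members were thus chosen by measured UMIs, Postn among them. The rule took 1812 of 18021 barcodes, of which 967 of 6856 were in TAC+ART, 358 of 7413 in TAC and 487 of 3752 in Sham.

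TAC, transverse aortic constriction, is an operation that narrows the aorta and loads the left ventricle with pressure. TAC+ART mice had the operation and artesunate, an antimalarial drug of the artemisinin family. TAC mice had the operation and vehicle, and Sham mice had vehicle and no constriction. All were labelled C57B6, with no further allele named, and the ventricles of 3 mice were pooled into 1 library for each group after frozen storage. The sources used here do not give age, sex, time after surgery, dose or whether cells or nuclei were loaded. No library had a replicate, so no test between groups was possible. Every interval below is a 95% interval for counting error only, and differences between animals or preparations cannot be told apart from differences between treatments.

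Cardiac fibroblasts make and turn over the matrix between heart muscle cells. In the resting adult mouse ventricle they express the transcription factor Tcf21 and the platelet-derived growth factor receptor Pdgfra. Under pressure load or after infarction many of them enter an activated state, in which they secrete periostin, the matricellular protein encoded by Postn, together with fibrillar collagens. Fibroblasts with no Postn UMI are those in which other genes of the resting state and of the response can be read without Postn as the mark.

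The libraries held 33364667 UMIs in TAC+ART, 37658150 in TAC and 17710689 in Sham. The fibroblasts without Postn held 4054880, 1378934 and 2041838 of these. Their median depth was 3951 UMIs in TAC+ART, 3430 in TAC and 3834 in Sham. A few barcode sequences occurred in more than 1 library, between 20 and 27 for each pair, and none of these was a fibroblast without Postn in both libraries of its pair.

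The absence of Postn was not a mark of fibroblasts alone. In TAC+ART, Postn was at 0 in 52.8% of all gated fibroblasts, 67.4% of gated endothelial cells, 64.6% of gated macrophages and 64.3% of gated cardiomyocytes. In TAC these shares were 19.96%, 29.1%, 34.2% and 26.7%, and in Sham 92.0%, 95.9%, 96.5% and 98.3%. Thus most barcodes of all 4 gates carried Postn UMIs in TAC, including those of cell types not known as its source. With every barcode thinned to 1000 UMIs, 8.85% of endothelial barcodes in TAC+ART, 25.5% in TAC and 1.41% in Sham still held a Postn UMI, at unthinned median depths of 4471, 4876 and 3953 UMIs. In TAC, the fibroblasts with Postn that met the other limits had a median depth of 4270 UMIs, above the 3430 of those without it.

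**Figure D1:**
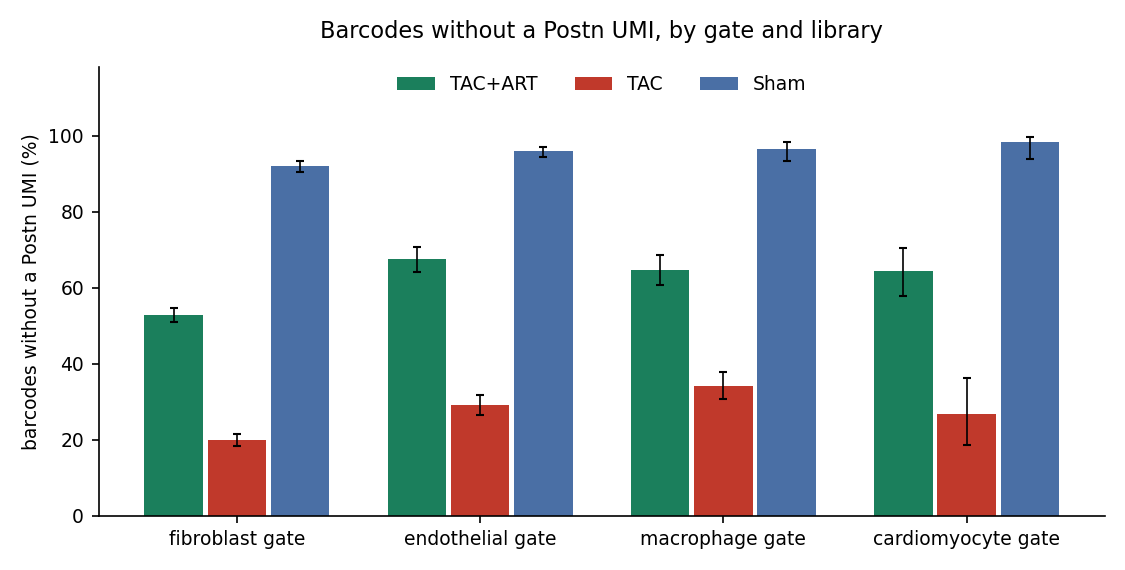
Share of barcodes without a Postn UMI (y axis, percent) in the fibroblast, endothelial, macrophage and cardiomyocyte gates, with bars for TAC+ART, TAC and Sham from left to right and exact 95% binomial intervals. In all 4 gates the TAC bar is the lowest, between 19.96% and 34.2%, and the Sham bar the highest.

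Fibroblasts without Postn made up 36.9% of gated fibroblasts in TAC+ART (35.0 to 38.7), 13.4% in TAC (12.1 to 14.7) and 37.8% in Sham (35.2 to 40.5). Since Postn chose them, these shares describe the rule and were not tested. Among fibroblasts that met every other limit, those at 0 Postn were 55.8% in TAC+ART, 24.4% in TAC and 90.9% in Sham. The gap between TAC+ART and Sham thus differed with the population counted. The other limits kept 1732 of 2623 gated fibroblasts in TAC+ART, 1467 of 2680 in TAC and 536 of 1288 in Sham. The adventitial limit left out the most, 805, 1050 and 710, the Thbs4 and Comp limit 55, 320 and 1, and the Grm8 limit 99, 4 and 92. Just outside the Postn limit, 442 barcodes in TAC+ART, 408 in TAC and 33 in Sham held exactly 1 Postn UMI. At the lower edge of F, 48, 30 and 21 members held 4 UMIs, and 29, 16 and 17 barcodes that met every other limit held 3. At the adventitial limit, 88, 34 and 67 members held 4 UMIs and 67, 24 and 63 barcodes just outside held 5.

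The members had a lower F, and more RNA of immune, vessel and muscle markers, in TAC than in Sham. The median F was 24 UMIs in TAC+ART, 9 in TAC and 26 in Sham, and 19.1%, 38.0% and 9.86% of members had F under 8. In gated endothelial cells the median F was 4, 4 and 2, so members near the limit held little more fibroblast RNA than another cell type did. The summed level of the 10 lymphocyte markers was 144 CPM (UMIs of the gene per 1000000 UMIs of the members) in TAC+ART, 385 in TAC and 43.6 in Sham, with all 10 detected in TAC+ART and TAC, and 9 in Sham, where Ms4a1 was at 0. The 11 macrophage markers summed to 737, 1273 and 372 CPM and the 11 endothelial markers to 1528, 1469 and 713 CPM. The 12 cardiomyocyte markers summed to 8531, 9307 and 5950 CPM, and all members of these 3 lists were detected in each library. Other lists were lower in TAC, with 523, 516 and 598 CPM for 10 pericyte and smooth muscle markers and 2416, 1715 and 2475 CPM for 6 adipocyte markers, of which Adipoq and Cidec were at 0 in each library and Plin1 in Sham. Markers of fibroblasts that the rule did not use, 12 genes that include Col1a1, Lum, Gsn, Kcnip1, Tll2 and Gsta3, summed to 7683, 5557 and 6254 CPM. Of these, Kcnip1, Tll2 and Gsta3 had been picked earlier for low values in TAC in these same libraries. The order of this sum is therefore no independent measure of fibroblast RNA. The part of RNA from other cells in the results below was not tested beyond the values of a stricter set of members and of other gates.

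The stricter set held those with F of at least 16 and at least 2 times the UMIs of 48 markers of other cell types, and is called the members with little other-type RNA. They were 531 in TAC+ART (54.9%), 101 in TAC (28.2%) and 342 in Sham (70.2%). In them the lymphocyte markers summed to 20.5, 10.9 and 8.0 CPM and the macrophage markers to 328, 308 and 156 CPM, while the cardiomyocyte markers still summed to 5947, 5617 and 5199.9 CPM. This set was chosen after the data had been seen. As the rule asked, the members held the defining markers. Pdgfra stood at 431 CPM in TAC+ART, 326 CPM in TAC and 471 CPM in Sham, against 23.3, 22.4 and 13.8 CPM in the endothelial gates of the same libraries, and Tcf21 at 26.9, 26.1 and 29.9 CPM, against 2.07, 1.71 and 2.81 CPM. Both genes are part of the rule, so these values describe it and are no check of it.

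The members were compared between libraries by summing their UMIs, and ratios are log2 values, on which 1 stands for a 2-fold difference. A gene was compared where the 2 libraries together held at least 100 of its UMIs and the higher level reached 50 CPM. Of 4931 such genes, 565 were at least 2-fold higher in TAC than in Sham (11.5%) and 239 at least 2-fold lower (4.85%). Between TAC+ART and TAC, 95 of 4824 genes were 2-fold higher in TAC+ART (1.97%) and 120 were 2-fold lower (2.49%). The median ratio over these genes was -0.12, and relative to it the counts were 122 higher and 88 lower. The medians of TAC over Sham and of TAC+ART over Sham were 0.10 and -0.03. Between TAC+ART and Sham, 200 of 4583 genes were 2-fold higher (4.36%) and 45 lower (0.982%). In the members with little other-type RNA the higher genes of TAC over Sham were fewer, 234 of 4180 (5.60%), while the lower ones were 190 (4.55%), and TAC+ART over TAC gave 91 higher (2.03%) and 62 lower (1.38%) of 4492. TAC+ART over TAC and TAC over Sham share the TAC library, so the 2 ratios are not independent and are given side by side only.

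Among the lowest genes in TAC relative to Sham were several that had been picked earlier for low values in TAC. A group of 14 genes, which earlier work on these same libraries had found low in TAC fibroblasts, was at least 2-fold lower in TAC than in Sham for all 14 members, with a median of -2.96, where 6.44% of genes with at least 20 UMIs were 2-fold lower and their median was 0.07. In TAC+ART over TAC all 14 were at least 2-fold higher, with a median of 1.92, where 4.34% of such genes were. Because the group was picked for this pattern in the same libraries, these counts describe it and support nothing. In the members with little other-type RNA, 13 of 14 were 2-fold lower in TAC than in Sham (median -2.23), where 7.62% of genes with at least 20 UMIs were 2-fold lower, and 12 of 14 were 2-fold higher in TAC+ART than in TAC (median 1.61), where 5.97% were.

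Kcnip1, which encodes a calcium-binding partner of Kv4 potassium channels, showed the widest gap of the 14 genes between TAC+ART and TAC. Its level was 444 CPM in TAC+ART, 41.3 CPM in TAC and 436 CPM in Sham, from 1800, 57 and 890 UMIs. TAC+ART thus stood at the Sham level, with a ratio of 0.03 (-0.09 to 0.14), while TAC lay below both, with -3.39 (-3.81 to -3.01) over Sham, and TAC+ART over TAC was 3.41 (3.04 to 3.83). The stricter set kept this order, at 629, 58.4 and 523 CPM. In gated endothelial cells the gene stood at 5.96, 1.88 and 2.55 CPM.

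Tll2, a tolloid-like metalloprotease related to the procollagen C-proteinase Bmp1, had 80.4 CPM in TAC+ART, 11.6 CPM in TAC and 184 CPM in Sham. Here TAC+ART lay between the other libraries, with a ratio of 2.75 (2.07 to 3.62) to TAC and of -1.20 (-1.41 to -0.98) to Sham. Gsta3, a glutathione S-transferase, had 221 CPM in TAC+ART, 43.5 CPM in TAC and 342 CPM in Sham, a ratio of 2.33 (1.97 to 2.75) to TAC for TAC+ART. Relative to Sham, TAC stood at -2.96 (-3.38 to -2.59). Thinned to 1000 UMIs, Gsta3 was seen in 14.9% of members in TAC+ART, 2.51% in TAC and 25.1% in Sham, against 1.597%, 0.719% and 0.975% of endothelial barcodes. Without thinning the shares were 42.5%, 11.5% and 58.3% of members and 4.67%, 2.70% and 4.12% of endothelial barcodes. The markers Kcnip1, Tll2 and Gsta3 thus described these fibroblasts in TAC+ART and Sham better than in TAC.

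Genes of secreted and surface proteins in the group were also lowest in TAC. Ccbe1, a secreted protein needed for the processing of the lymphatic growth factor Vegfc, stood at 242 CPM in TAC+ART, 81.2 CPM in TAC and 775 CPM in Sham, and TAC+ART stood at -1.68 (-1.79 to -1.56) relative to Sham. Mme, the membrane peptidase neprilysin, had 59.2 CPM in TAC+ART, 12.3 CPM in TAC and 103 CPM in Sham, and TAC stood at -3.03 (-3.87 to -2.35) relative to Sham. Podn, a small leucine-rich proteoglycan, had 144 CPM in TAC+ART, 44.96 CPM in TAC and 224 CPM in Sham. Col6a6, a chain of collagen VI, had 96.4 CPM in TAC+ART, 43.5 CPM in TAC and 279 CPM in Sham, and its ratio of TAC+ART over TAC was 1.14 (0.75 to 1.57) over all members and 0.54 in those with little other-type RNA. Ptgfr, the prostaglandin F receptor, was counted 76 times in TAC+ART, 4 times in TAC and 87 times in Sham, a ratio of -3.71 (-5.78 to -2.47) for TAC over Sham. TAC+ART thus lay between TAC and Sham for all 5 of these genes.

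The other members have roles inside the cell or in its membrane. Abca6, a transporter of the ABC family, had 521 CPM in TAC+ART, 159 CPM in TAC and 795 CPM in Sham. Hlf, a transcription factor of clock output, had 219 CPM in TAC+ART, 53.7 CPM in TAC and 318 CPM in Sham. Inmt, a methyltransferase of small amines, had 24.2 CPM in TAC+ART, 6.53 CPM in TAC and 97.5 CPM in Sham, with TAC+ART at -2.01 (-2.38 to -1.66) relative to Sham. The 2 members known only by a clone or model name differed. Gm4956 had 173 CPM in TAC+ART, 32.6 CPM in TAC and 183 CPM in Sham, so TAC+ART lay at the Sham level. A830012C17Rik had 16.5 CPM in TAC+ART, 6.53 CPM in TAC and 53.4 CPM in Sham, and TAC+ART lay nearer to TAC. Fam13a, a protein with a RhoGAP domain, had the smallest gap, -1.05 (-1.65 to -0.50) for TAC over Sham, and -0.79 in the members with little other-type RNA. Its level in gated cardiomyocytes, 183, 79.9 and 171 CPM, was above that in fibroblasts in every library.

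Relative to Sham, TAC+ART was 2-fold lower for 6 of the 14 genes and higher, by any amount, for 2. The median was -0.72, and 2.57% of genes with at least 20 UMIs were 2-fold lower. The 2 higher ones were Kcnip1, which lay at the Sham level as given above, and Fam13a. The 6 lower ones were Tll2, Ccbe1, Inmt, Col6a6, Ptgfr and A830012C17Rik, and Gm4956, Gsta3, Mme, Hlf, Podn and Abca6 lay between.

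**Figure D2:**
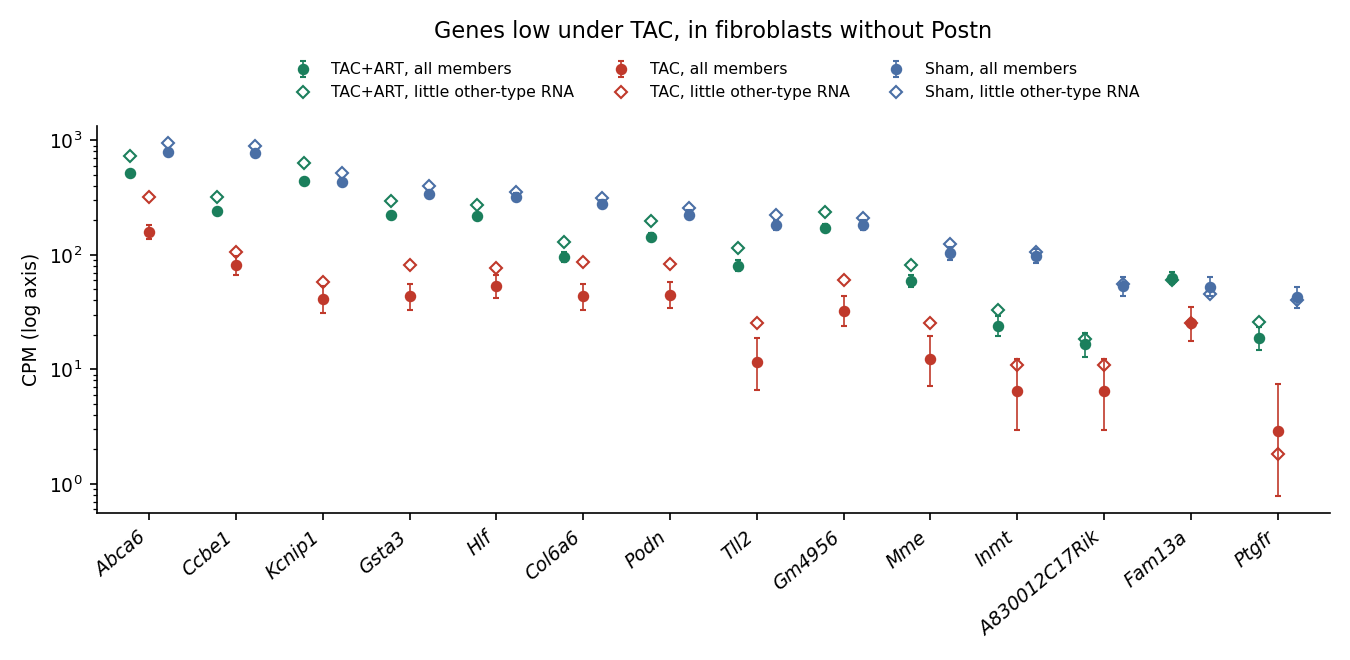
Level (CPM, log axis) of the 14 genes in fibroblasts without Postn, with TAC+ART, TAC and Sham from left to right for each gene. Filled circles are all members with exact 95% Poisson intervals and open diamonds the members with little other-type RNA. TAC is the lowest of the 3 for all 14 genes in both sets; Kcnip1 stands at 41.3 CPM in TAC, against 444 in TAC+ART and 436 in Sham.

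The same 14 genes were then described barcode by barcode, which adds no support, since they were picked in these libraries. Each member was thinned to 2000 UMIs, which left out 130 members in TAC+ART, 64 in TAC and 33 in Sham, and the UMIs of the 14 genes were summed. The median sum was 4 in TAC+ART, 0 in TAC and 7 in Sham, and 19.1%, 54.8% and 5.29% of members had none. The medians were 6, 1 and 9 in the stricter set. TAC+ART lay between TAC and Sham in each of these values. Fibroblasts with Postn gave the same order, with medians of 3, 0 and 5 over 674, 931 and 45 barcodes, so the Sham value rests on few.

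Kcnip1 alone, counted without thinning, was absent from most members in each library. At least 3 Kcnip1 UMIs were found in 193 members in TAC+ART (19.96%), 9 in TAC (2.51%) and 102 in Sham (20.9%), while 69.9%, 92.5% and 66.7% had none. Where present, it averaged 6.19, 2.11 and 5.49 UMIs for each barcode. In the fibroblasts with Postn that met the other limits, 21.2% in TAC+ART, 3.97% in TAC and 16.3% in Sham (8 of 49) reached 3 UMIs. The order of TAC+ART and TAC was thus the same on both sides of the Postn limit. In the endothelial gate 2.83%, 0.988% and 0.975% of barcodes held any Kcnip1 UMI, against 30.1%, 7.54% and 33.3% of members.

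**Figure D3:**
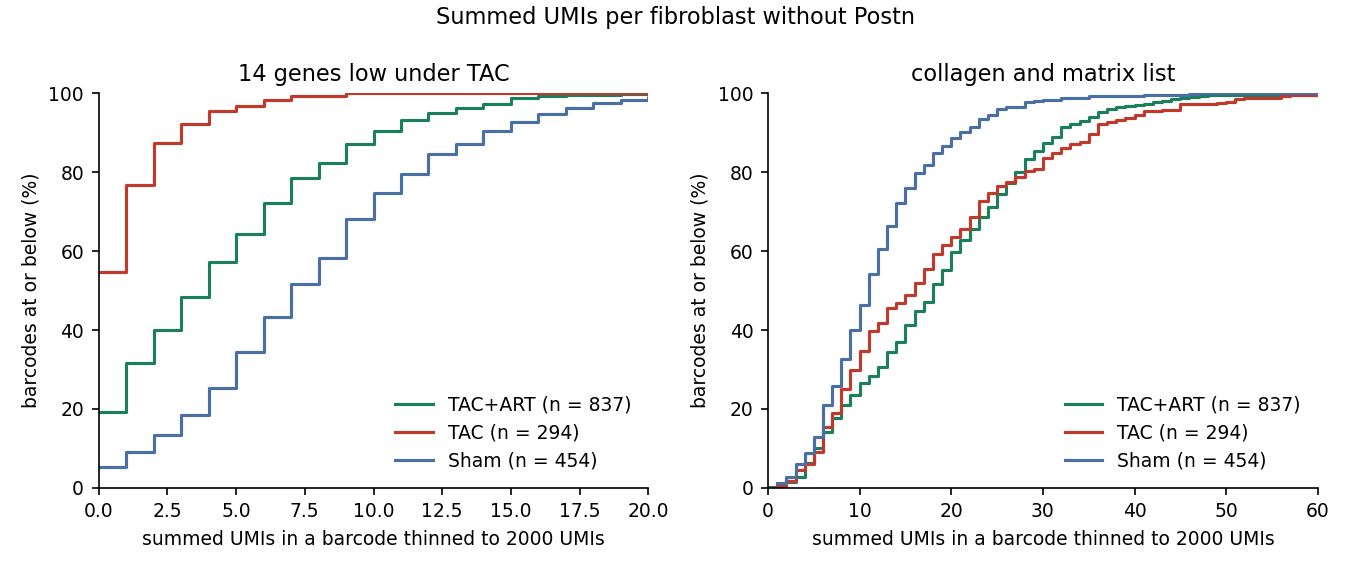
Share of fibroblasts without Postn (y axis, percent) whose summed UMIs, after thinning to 2000 UMIs, lie at or below the value on the x axis, for the 14 genes low under TAC (left) and the matrix list (right). The median of the left panel is 4 in TAC+ART, 0 in TAC and 7 in Sham, and that of the right panel 18, 16 and 11.

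Several genes outside the 14 were also low in TAC. Kcnk2, the stretch-sensitive potassium channel TREK-1, had 84.3 CPM in TAC+ART, 33.4 CPM in TAC and 215 CPM in Sham, and TAC stood at -2.67 (-3.16 to -2.24) relative to Sham. Abca8b, a transporter of the same family as Abca6, had 785 CPM in TAC+ART, 231 CPM in TAC and 1034 CPM in Sham, and Aspa, the aspartoacylase, 96.4, 27.6 and 156 CPM. Slc24a2, a sodium, calcium and potassium exchanger, had 19.7 CPM in TAC+ART, 5.08 CPM in TAC and 54.4 CPM in Sham, and Tmem178b 57.2, 12.3 and 104 CPM. All 5 were higher in TAC+ART than in TAC, Abca8b by 1.76 (1.60 to 1.93) and Kcnk2 by 1.32 (0.89 to 1.82), and all 5 kept this order in the members with little other-type RNA.

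Plcxd3 and Slit3 were lower in both operated libraries. Plcxd3, a phospholipase-like protein, had 30.3 CPM in TAC+ART, 13.1 CPM in TAC and 102 CPM in Sham. Slit3, a secreted guidance ligand of Robo receptors made by cardiac fibroblasts, had 761 CPM in TAC+ART, 544 CPM in TAC and 1957 CPM in Sham, and TAC+ART stood at -1.36 (-1.43 to -1.29) relative to Sham and at 0.48 (0.37 to 0.60) relative to TAC. Tox, a nuclear factor of the HMG box family, had 40.7 CPM in TAC+ART, 44.96 CPM in TAC and 151 CPM in Sham, and Chrd, the secreted BMP antagonist chordin, 15.3, 14.5 and 53.4 CPM. For these 4 genes TAC+ART was nearer to TAC than to Sham on the log2 scale.

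A further 3 of the lowest genes are known mainly from neural cells. Slc35f1 was counted 26 times in TAC+ART, 1 time in TAC and 115 times in Sham, a ratio of -5.70 (-11.60 to -3.77) for TAC over Sham, and in the endothelial gate it stood at 18.4, 18.6 and 18.4 CPM. Cadm2, a synaptic adhesion molecule, had 15.8, 11.6 and 95.5 CPM over all members but 3.48, 1.82 and 20.7 CPM in those with little other-type RNA. Nkain2, of the family that interacts with the sodium pump, had 276, 200.2 and 949 CPM over all members and 371, 341 and 981 CPM in the stricter set. The summed level of 7 Schwann and neural markers was 678 CPM in TAC+ART, 398 CPM in TAC and 1148 CPM in Sham. Sox10 and Kcna1 were at 0 in TAC, and all 7 were detected in TAC+ART and Sham. The sum was higher in the members with little other-type RNA, at 899, 613 and 1234 CPM. In the endothelial gate it was 50.5, 59.3 and 38.3 CPM. The part of neural RNA in the levels of these 3 genes was not tested.

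The list of resting fibroblast genes as a whole was mixed. Of 24 measured members, 9 were at least 2-fold lower in TAC than in Sham, where 6.44% of genes with at least 20 UMIs were, and 3 at least 2-fold higher, near the 11.7% of such genes, with a median of -0.60. These shares, and for TAC+ART over TAC 4.34% higher and 4.87% lower, are the background of every list below. Of 25 measured genes, 5 were 2-fold higher and 1 lower in TAC+ART than in TAC, and the median was 0.61. The median of TAC over Sham was -0.16 in the stricter set. Ebf2, a transcription factor of mesenchymal cells, had 979.8 CPM in TAC+ART, 525 CPM in TAC and 1681 CPM in Sham, and Rora, the nuclear receptor that is also part of the clock, 5113, 2556 and 8264 CPM. Gsn, the actin-severing protein gelsolin, lay the other way, with 3026 CPM in TAC+ART, 2020.4 CPM in TAC and 1493 CPM in Sham. In the endothelial gate Gsn stood at 1168, 747 and 455 CPM, in the same order. Gsn was named after its values were seen, as were Lum, Ccl11, Tef, Bhlhe41, Nfil3, Nr1d1 and Nr1d2 below.

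Fibrillar collagen and matrix genes were higher in TAC than in Sham in these fibroblasts, although none of the barcodes held a Postn UMI. Of 36 measured genes of the list, 32 were higher, 14 of them at least 2-fold, and 2 were at least 2-fold lower, with a median of 0.85, where 11.7% of genes with at least 20 UMIs were 2-fold higher. In the members with little other-type RNA 25 of 35 were 2-fold higher, where 7.62% of genes were, and the median was 1.33. TAC+ART lay close to TAC, with a median of -0.21 over 39 genes, of which 3 were 2-fold higher and 2 lower, and -0.40 in the members with little other-type RNA. Relative to Sham the TAC+ART median was 0.75, with 11 of 38 genes 2-fold higher and 1 lower, where 6.37% of genes were 2-fold higher.

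Col1a1, a chain of collagen I, had 283 CPM in TAC+ART, 332 CPM in TAC and 106 CPM in Sham, so that TAC over Sham was 1.65 (1.41 to 1.89), and TAC+ART over TAC -0.23 (-0.39 to -0.07). Col3a1, the chain of collagen III, had 584 CPM in TAC+ART, 688 CPM in TAC and 345 CPM in Sham. Both were well above their levels in the endothelial gate. There Col1a1 stood at 86.8, 97.1 and 21.4 CPM and Col3a1 at 153, 242 and 52.6 CPM, in the same order. The higher level in TAC than in Sham was thus not particular to these fibroblasts. Mfap4, a microfibril protein, was the highest of the measured list in TAC relative to Sham, at 56.5 CPM in TAC+ART, 84.8 CPM in TAC and 8.82 CPM in Sham. Lox, the enzyme that crosslinks collagen, had 9.62 CPM in TAC+ART, 31.2 CPM in TAC and 5.88 CPM in Sham, and was the lowest of the measured list in TAC+ART over TAC, at -1.70 (-2.36 to -1.04). Lum, a proteoglycan that spaces collagen fibrils, was highest in TAC+ART, at 322 CPM in TAC+ART, 213 CPM in TAC and 119.99 CPM in Sham.

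The only members of the matrix list at least 2-fold lower in TAC than in Sham were Efemp1 and Pcolce2. Efemp1, also called fibulin-3, had 52.5 CPM in TAC+ART, 24.7 CPM in TAC and 112 CPM in Sham. Pcolce2, an enhancer of procollagen C-proteinase, had 144 CPM in TAC+ART, 71.1 CPM in TAC and 162 CPM in Sham, and in the members with little other-type RNA its ratio of TAC over Sham was -0.69. Both were 2-fold higher in TAC+ART than in TAC over all members, by 1.07 (0.56 to 1.66) for Efemp1 and 1.01 (0.70 to 1.34) for Pcolce2. Neither passed 2-fold under every alternative. Efemp1 stood at 0.40 with Postn at 0 after thinning to 1500 UMIs but at 1.38 in the members with little other-type RNA, and Pcolce2 at 0.64 in those members and 0.69 after thinning to 1000 UMIs.

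Per barcode the matrix sum overlapped widely between the libraries. After thinning to 2000 UMIs its median was 18 UMIs in TAC+ART, 16 in TAC and 11 in Sham. The stricter set had medians of 23, 26 and 12, so TAC was then the highest. The order of TAC+ART and TAC in this sum thus turned with the set, and Sham was lowest in both sets. The 12 markers of fibroblasts outside the rule also differed between the sets in TAC, at 8443 CPM in the stricter set and 5557 over all members.

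Basement membrane genes lay in both directions, and the 2 highest and 2 lowest measured ones in TAC over Sham are given here. The collagen IV chains Col4a1 and Col4a2 had 402, 742 and 275 CPM and 273, 464 and 178 CPM in TAC+ART, TAC and Sham, and their ratios of TAC over Sham were 1.43 (1.28 to 1.58) and 1.38 (1.20 to 1.57). The endothelial gates held 393, 823 and 309.7 CPM of Col4a1, in the same order. Lamc1, the gamma chain of most laminins, lay the other way at 1089 CPM in TAC+ART, 709.97 CPM in TAC and 1527 CPM in Sham, and so did the linker Nid2 at 52.8, 29.01 and 60.7 CPM. Over the 18 genes of the list the median was -0.29 for TAC over Sham, and 0.18 in the members with little other-type RNA. Over all members 2 genes were 2-fold higher and 2 lower, against 11.7% and 6.44% of genes. The count of higher genes is near its share over all genes. The median ratio of TAC+ART to TAC was 0.45, with none of the 18 past 2-fold in either direction. In the members with little other-type RNA that median was 0.20 and Col4a1 was 2-fold lower, at -1.22, while for TAC over Sham 3 of 17 were 2-fold higher and none lower, with Lamc1 at -0.66 and Nid2 at -0.89.

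Genes known from activated fibroblasts were also higher in TAC without Postn. Of 30 measured members of that list, 15 were at least 2-fold higher in TAC than in Sham, against 11.7% of genes, and 2 lower, near the 6.44% of genes, with a median of 0.997. Of 31 genes, 8 were 2-fold lower and 1 higher in TAC+ART than in TAC, where 4.87% of genes were 2-fold lower, and the median was -0.38. Cilp, a secreted matrix protein of cartilage and fibrotic heart, had 66.8 CPM in TAC+ART, 157 CPM in TAC and 7.84 CPM in Sham. Its ratio of TAC over Sham was 4.28 (3.59 to 5.15), and that of TAC+ART over TAC -1.23 (-1.49 to -0.96). In the endothelial gate Cilp stood at 46.1, 99.99 and 3.57 CPM, in the same order. Adamtsl2, a secreted binder of latent TGF-beta complexes, had 117 CPM in TAC+ART, 162 CPM in TAC and 13.7 CPM in Sham, against 22.02, 30.4 and 3.83 CPM in the endothelial gate.

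Timp1 and Ltbp2 were among the 8 genes lower in TAC+ART than in TAC. Timp1, an inhibitor of matrix metalloproteases, had 10.9 CPM in TAC+ART, 68.9 CPM in TAC and 4.90 CPM in Sham, a ratio of -2.66 (-3.22 to -2.14) for TAC+ART over TAC. Ltbp2, a microfibril-binding member of the latent TGF-beta binding proteins, had 22.2 CPM in TAC+ART, 88.5 CPM in TAC and 10.3 CPM in Sham, a ratio of -1.99 (-2.40 to -1.59). The endothelial gates held 7.51, 33.2 and 3.57 CPM of Timp1 and 13.5, 29.9 and 1.79 CPM of Ltbp2. Meox1, a homeobox factor known from activated fibroblasts in mouse hearts, was closer between them, at 44.1 CPM in TAC+ART, 73.2 CPM in TAC and 12.2 CPM in Sham, and so was Ccn2, the connective tissue growth factor, at 144, 174 and 41.1 CPM. Fap, a serine protease of activated fibroblasts, lay against the list's name, with 289 CPM in TAC+ART, 129.8 CPM in TAC and 354 CPM in Sham, a ratio of -1.44 (-1.69 to -1.21) for TAC over Sham.

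The genes of the circadian clock did not all differ in the same direction. The clock is a feedback loop in which Arntl with Clock or Npas2 switches on the Per and Cry repressors, the nuclear receptors Nr1d1 and Nr1d2 and the output factors Dbp, Tef and Hlf through E-box sites. Nr1d1 and Nr1d2 in turn repress Arntl and Npas2 through sites shared with Rora, and Dbp, Tef and Hlf bind D-box sites. Of 19 measured genes, 11 were at least 2-fold lower in TAC than in Sham, against 6.44% of genes, and 3 at least 2-fold higher, near the 11.7% of genes, with a median of -1.21. Of 18 measured genes, 7 were 2-fold higher and 3 lower in TAC+ART than in TAC, against 4.34% and 4.87% of genes, and the median was 0.82. The 3 exceptions were the same genes in both ratios, Arntl, Npas2 and Nfil3. The sources used here do not give the time of day at which the hearts were taken, so clock phase and treatment cannot be told apart.

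Promoter sequences are shown for the 6 clock genes that were at least 2-fold apart between TAC and Sham and hold a searched motif. They are RefSeq sequences on GRCm38.p6, 90 bases each, 5′ to 3′ on the gene's strand, and capitals mark the motif. The first 4 carry the E-box CACGTG, the fifth the D-box TTATGTAA, and the last pair the RORE core TAGGTCA, which in Nfil3 reads TGACCTA on the gene's strand. The full promoters of Ciart and Per3 held 3 and 2 matches, of which 1 each lies in the stretch shown, and 1 of 2 Arntl promoters held a match.
Tef, first promoter (chr15:81802506-81802595, plus strand): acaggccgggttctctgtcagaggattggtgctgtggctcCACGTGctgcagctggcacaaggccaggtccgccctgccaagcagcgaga
Tef, second promoter (chr15:81811236-81811325, plus strand): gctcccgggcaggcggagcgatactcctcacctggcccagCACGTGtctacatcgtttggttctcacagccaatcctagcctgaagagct
Ciart (chr3:95882295-95882384, minus strand): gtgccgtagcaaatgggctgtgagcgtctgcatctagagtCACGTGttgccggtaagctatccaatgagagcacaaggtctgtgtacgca
Bhlhe41 (chr6:145865524-145865613, minus strand): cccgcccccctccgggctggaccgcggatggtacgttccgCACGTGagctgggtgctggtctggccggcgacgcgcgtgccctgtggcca
Per3 (chr4:151044821-151044910, minus strand): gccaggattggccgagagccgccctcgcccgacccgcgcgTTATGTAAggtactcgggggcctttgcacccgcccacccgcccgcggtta
Arntl (chr7:113207471-113207560, plus strand): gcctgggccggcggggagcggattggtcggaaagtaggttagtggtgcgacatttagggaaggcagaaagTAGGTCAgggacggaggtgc
Nfil3 (chr13:52981040-52981129, minus strand): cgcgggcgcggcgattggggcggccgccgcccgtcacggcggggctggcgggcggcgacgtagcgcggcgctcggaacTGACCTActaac
On either strand, the E-box letters occur in 7.15% of 32851 promoters of 300 bases (250 before and 50 after the start), the D-box letters in 0.938% and the RORE core in 2.61%. No promoter of the 19 clock genes held more than 1 kind of motif, so no matches of different motifs overlapped there. Promoters of Per1 and Cry1 also hold the E-box, but these genes were not 2-fold apart between TAC and Sham and are not shown. The genes shown were picked by their ratios, so their directions say nothing about the motif. A match describes the letters and is not evidence of binding.

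The E-box genes shown, which were picked for being 2-fold apart, were low in TAC. Tef had 252 CPM in TAC+ART, 79.05 CPM in TAC and 337 CPM in Sham, a ratio of -2.09 (-2.40 to -1.80) for TAC over Sham. TAC+ART stood at 1.67 (1.39 to 1.97) relative to TAC. Bhlhe41, a repressor of E-box genes, had 51.05 CPM in TAC+ART, 16.7 CPM in TAC and 63.7 CPM in Sham. Ciart, a repressor of Arntl and Clock, was counted 56, 5 and 56 times in TAC+ART, TAC and Sham, a ratio of -2.79 (-4.60 to -1.61) for TAC over Sham. Per3, with the D-box, had 172 CPM in TAC+ART, 40.6 CPM in TAC and 264 CPM in Sham, and was among the 12 highest genes of TAC+ART over TAC, at 2.07 (1.69 to 2.50).

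Dbp, the output factor with no searched motif in this window, had 129.97 CPM in TAC+ART, 36.98 CPM in TAC and 158 CPM in Sham, a ratio of -2.08 (-2.55 to -1.66) for TAC over Sham. Nr1d1 had 115, 65.3 and 143 CPM and Nr1d2 281, 154 and 388 CPM. The activators Arntl and Npas2 lay the other way, while Clock, the other partner of Arntl, was not among the genes 2-fold higher in TAC. Arntl had 10.4 CPM in TAC+ART, 42.8 CPM in TAC and 6.37 CPM in Sham, so that TAC stood at 2.71 (1.87 to 3.74) relative to Sham and TAC+ART at -2.04 (-2.65 to -1.45) relative to TAC. Npas2 had 11.6 CPM in TAC+ART, 39.2 CPM in TAC and 9.31 CPM in Sham. Nfil3, a repressor of D-box genes that carries the RORE core, was counted 14, 14 and 7 times. In TAC+ART the 3 genes stood near Sham, with 0.66 (-0.22 to 1.72) for Arntl, and in the members with little other-type RNA all 3 kept their direction.

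The same order was seen in endothelial barcodes. In their gate Per3 had 119, 53.7 and 152 CPM, and Dbp 119, 51.3 and 163 CPM. Arntl there had 10.1, 32.99 and 7.66 CPM. In the macrophage gate Per3 had 86.2, 28.1 and 57.1 CPM, so TAC was again lowest, but Arntl had 17.05, 60.7 and 67.3 CPM, with Sham highest.

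**Figure D4:**
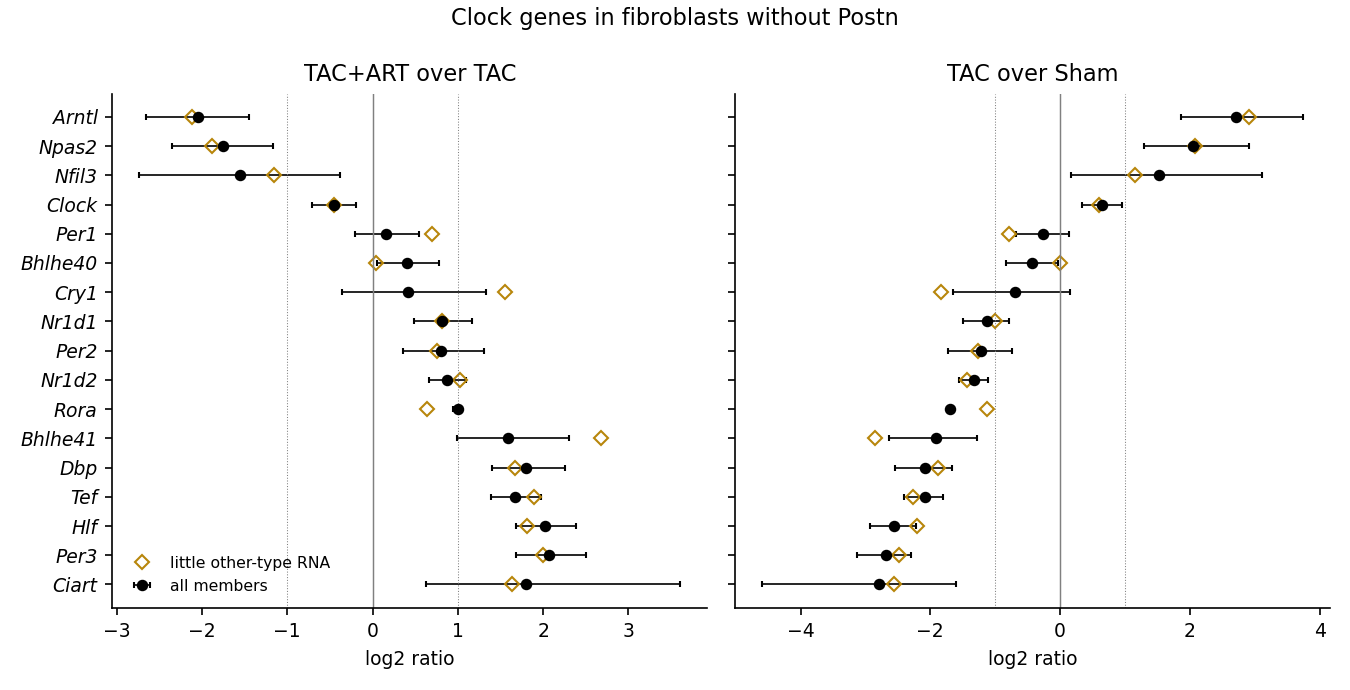
Log2 ratio (x axis) of clock genes in fibroblasts without Postn, for TAC+ART over TAC (left) and TAC over Sham (right), with exact 95% intervals around all members and open diamonds for those with little other-type RNA. Arntl, Npas2 and Nfil3 lie on the opposite side of 0 from Per3, Hlf, Tef and Dbp in both panels.

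Stress genes were higher in TAC than in both other libraries. Of 26 measured immediate early and heat shock genes, 18 were at least 2-fold higher in TAC than in Sham, against 11.7% of genes, and none 2-fold lower, with a median of 1.29. Between TAC+ART and TAC, 7 of 27 were 2-fold lower in TAC+ART, against 4.87% of genes, and the median was -0.79. Hsph1, a heat shock protein of the Hsp110 family, had 21.2 CPM in TAC+ART, 81.2 CPM in TAC and 15.2 CPM in Sham, and Dnajb1, an Hsp40 co-chaperone, was counted 35, 26 and 6 times. Nr4a1, an immediate early nuclear receptor, had 6.66 CPM in TAC+ART, 42.1 CPM in TAC and 22.04 CPM in Sham, so that TAC+ART lay below Sham by -1.72 (-2.47 to -1.01). In the endothelial gate Hsph1 had 20.5, 52.1 and 11.5 CPM and Nr4a1 10.1, 50.6 and 34.7 CPM, with TAC highest for both. These genes are known to respond quickly to injury and to tissue handling.

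NF-kB targets and acute phase genes were also mostly highest in TAC. Of 21 measured genes, 8 were at least 2-fold higher in TAC than in Sham, against 11.7% of genes, and none 2-fold lower, with a median of 0.73. Between TAC+ART and TAC, 9 of 24 were at least 2-fold lower in TAC+ART, against 4.87% of genes, and 1 was higher, with a median of -0.81. The higher one was Ccl11, the eosinophil chemokine eotaxin, counted 31, 1 and 18 times in TAC+ART, TAC and Sham, a ratio of 2.84 (0.81 to 8.75) for TAC+ART over TAC. Serpina3n, an acute phase inhibitor of serine proteases, had 20.5 CPM in TAC+ART, 103 CPM in TAC and 16.2 CPM in Sham, so that TAC stood at 2.65 (2.12 to 3.26) relative to Sham and TAC+ART at -2.33 (-2.74 to -1.93) relative to TAC. The endothelial gates held 8.55, 50.6 and 6.38 CPM of it. The metallothioneins, which bind zinc and copper, stood at 13.6, 60.2 and 7.84 CPM for Mt2 and 73.7, 141 and 39.2 CPM for Mt1. Cxcl1, a neutrophil chemokine, had 6.91 CPM in TAC+ART, 26.1 CPM in TAC and 28.9 CPM in Sham and was lowest in TAC+ART, while the endothelial gates held 4.15, 48.4 and 5.87 CPM. The unannotated 2600014E21Rik had 9.37 CPM in TAC+ART, 50.04 CPM in TAC and 14.2 CPM in Sham, and it was near 0 in the endothelial gate, at 1.30, 1.88 and 1.79 CPM.

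Chaperones of the endoplasmic reticulum, where collagen is folded, were moderately higher in TAC. Of 27 measured genes 8 were 2-fold higher in TAC than in Sham, against 11.7% of genes, and none lower, with a median of 0.44, and none of 28 passed 2-fold in TAC+ART over TAC, with a median of -0.30. Hspa5, the chaperone BiP, had 119 CPM in TAC+ART, 234 CPM in TAC and 85.7 CPM in Sham, and Calr, calreticulin, 106, 173 and 57.3 CPM. The endothelial gates held 106, 156 and 81.95 CPM of Hspa5, in the same order.

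TGF-beta is the main growth factor known to activate fibroblasts. Tgfb1 had 55.98 CPM in TAC+ART, 97.2 CPM in TAC and 22.04 CPM in Sham, so that TAC stood at 2.13 (1.64 to 2.66) relative to Sham and TAC+ART at -0.80 (-1.11 to -0.48) relative to TAC. This second ratio was -0.18 after thinning to 1000 UMIs and -1.13 in the members with little other-type RNA. The endothelial gates held 79.3, 133 and 87.1 CPM of it. The co-receptor Tgfbr3 lay the other way at 495 CPM in TAC+ART, 312 CPM in TAC and 798 CPM in Sham. Of 29 measured genes of the pathway 7 were 2-fold higher in TAC than in Sham and 1 lower, against 11.7% and 6.44% of genes, with a median of 0.46. Of 30 measured genes, none was 2-fold higher and only Ltbp2 was 2-fold lower in TAC+ART than in TAC, and the median was -0.20.

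Growth factors differed gene by gene. Fgf7, the keratinocyte growth factor, was counted 107, 9 and 58 times in TAC+ART, TAC and Sham, so its level of 26.4 CPM in TAC+ART lay at that of Sham, 28.4 CPM, against 6.53 CPM in TAC. Fgf10, another ligand of the Fgfr2 receptor, had 8.14 CPM in TAC+ART, 7.25 CPM in TAC and 37.7 CPM in Sham and was low in both operated libraries. Igfbp7, a secreted binder of insulin-like growth factors, had 716 CPM in TAC+ART, 879 CPM in TAC and 361 CPM in Sham, against 584, 912 and 488 CPM in the endothelial gate. Over the 29 measured growth factors and binding proteins, 2 were 2-fold higher and 6 lower in TAC than in Sham, against 11.7% and 6.44% of genes. In TAC+ART over TAC 4 were higher and 1 lower, against 4.34% and 4.87%.

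The study names MD2, the co-receptor that lets Toll-like receptor 4 bind lipopolysaccharide, as a target. Its gene Ly96 was low in these fibroblasts, at 18.00 CPM in TAC+ART, 21.03 CPM in TAC and 16.2 CPM in Sham, and the intervals of both ratios spanned 0, at 0.38 (-0.39 to 1.14) for TAC over Sham and, for TAC+ART over TAC, -0.24 (-0.86 to 0.45). In the macrophage gate it stood at 79.98, 80.7 and 66.4 CPM. Tlr4 had 116 CPM in TAC+ART, 125 CPM in TAC and 84.7 CPM in Sham, so that TAC stood at 0.57 (0.25 to 0.88) relative to Sham and TAC+ART at -0.11 (-0.36 to 0.15) relative to TAC. Cd14, the third part of the receptor complex, was counted 23, 20 and 7 times over all members, with 2.02 (0.78 to 3.57) for TAC over Sham, but in the members with little other-type RNA this ratio was -0.13. Over 29 measured genes of the pathway, 3 were 2-fold higher and none lower in TAC than in Sham (median 0.23), and 2 were lower and none higher in TAC+ART than in TAC (median -0.24). Both counts are near the shares over all genes, 11.7% and 4.87%. With little other-type RNA these medians were 0.08 over 24 genes and -0.07 over 26.

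Redox and lipid genes lay in both directions. Among 32 measured redox genes 9 were 2-fold higher and 7 lower in TAC than in Sham, and among 27 measured genes of lipid transport and metabolism 4 and 7, against 11.7% and 6.44% of genes. Hmox1, heme oxygenase, was counted 21, 25 and 8 times, and Cyp1b1, a cytochrome P450 of fibroblasts, had 35.8 CPM in TAC+ART, 42.1 CPM in TAC and 10.3 CPM in Sham. Of 34 measured interferon response genes 6 were at least 2-fold higher in TAC+ART than in TAC, against 4.34% of genes, and none lower, and the median was 0.26. In TAC over Sham 3 of 33 were 2-fold higher and 4 lower, near the shares over all genes. Iigp1, an interferon-induced GTPase, had 76.2 CPM in TAC+ART, 22.5 CPM in TAC and 45.1 CPM in Sham, but it was higher in the endothelial gate, at 307, 92.6 and 237 CPM, in the same order. Among 32 matrix proteases and inhibitors 7 were 2-fold higher and 8 lower in TAC than in Sham, against 11.7% and 6.44% of genes. The lower ones include Tll2 and Mme, which had been picked for low values in TAC. Cst3, the protease inhibitor cystatin C, had 408 CPM in TAC+ART, 559.9 CPM in TAC and 152 CPM in Sham, against 380.1, 416 and 258 CPM in the endothelial gate.

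**Figure D5:**
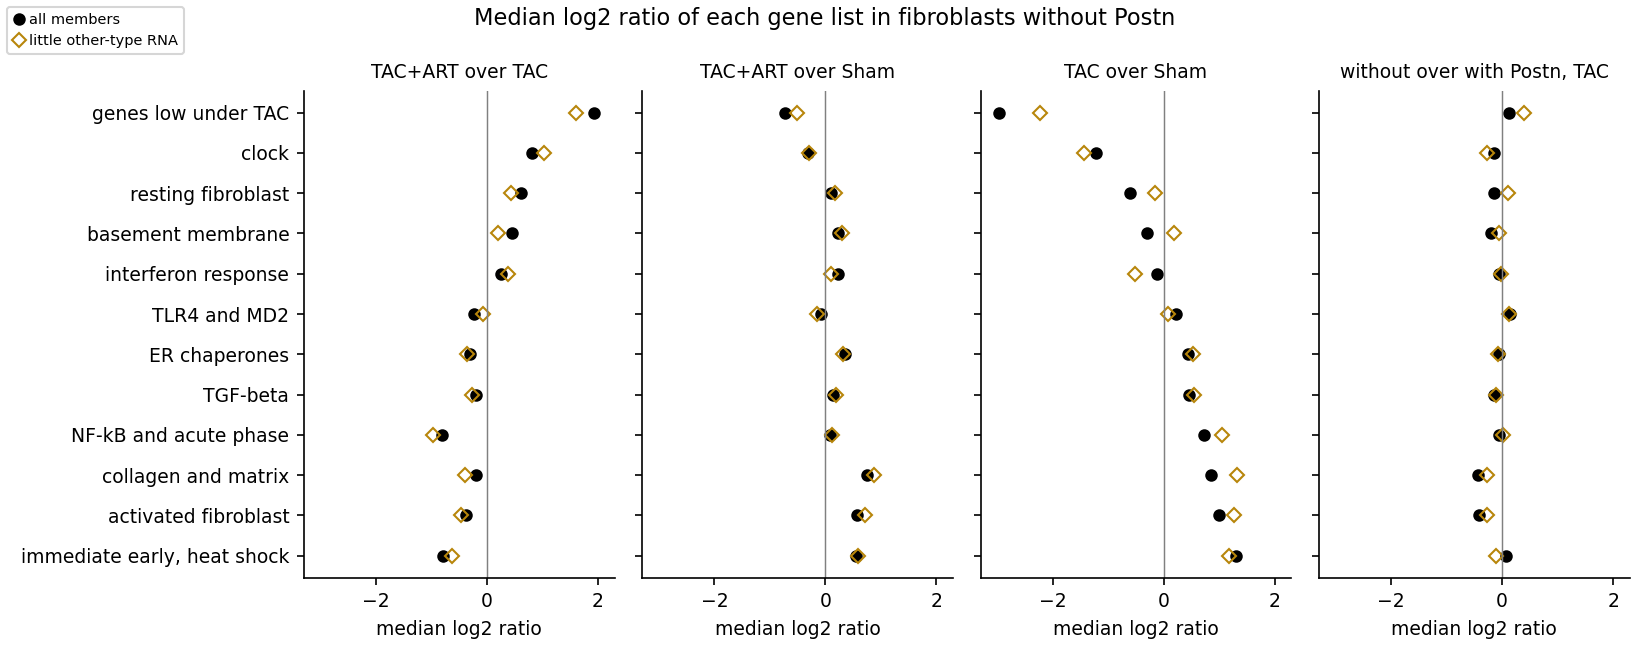
Median log2 ratio (x axis) of 12 gene lists in fibroblasts without Postn, for TAC+ART over TAC, TAC+ART over Sham, TAC over Sham and, in TAC alone, fibroblasts without over those with Postn. Filled circles are all members and open diamonds those with little other-type RNA. The 14 genes low under TAC lie farthest from 0, at 1.92 for TAC+ART over TAC and -2.96 for TAC over Sham.

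Set directly against Sham, TAC+ART fibroblasts without Postn were highest in Adamtsl2, Cilp, Mfap4 and 3 genes of heart muscle. Adamtsl2 stood at 3.06 (2.54 to 3.69), Cilp at 3.05 (2.37 to 3.92) and Mfap4 at 2.64 (1.99 to 3.46) relative to Sham. The muscle genes Nppa, Acta1 and Ankrd1, which code for atrial natriuretic peptide, skeletal actin and a sarcomeric stress protein, had in TAC+ART, TAC and Sham 84.3, 326 and 10.3 CPM for Nppa, 215, 570.01 and 34.3 CPM for Acta1 and 269, 506 and 56.8 CPM for Ankrd1. In the endothelial gate they had 67.1, 281 and 12.3 CPM, 183, 407 and 34.98 CPM and 203, 380.5 and 60.3 CPM, close to the values in fibroblasts. The matrix genes were thus still above Sham in TAC+ART, while the clock median was -0.32 with none of 19 genes 2-fold higher and 1 lower, and the NF-kB median was 0.08.

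Within TAC, few genes were 2-fold apart between fibroblasts without Postn and those with it, though the counts varied with the processing. The 1109 TAC fibroblasts with Postn that met the other limits held 5019474 UMIs. Of these barcodes 408 held exactly 1 Postn UMI, and most barcodes of the other gates in TAC also carried Postn. The split is thus no clean separation of Postn states. Of 4745 genes 13 were at least 2-fold higher in the fibroblasts without Postn (0.274%) and 2 lower (0.0421%). Over the same genes, thinning to 1000 UMIs gave 27 higher and 34 lower. Counting barcodes with 1 Postn UMI as without it gave 25 and 10. The 2 lower ones before any change of processing were Myh11 and Thbs1. Myh11, the smooth muscle myosin, stood at 18.1 CPM without and 75.7 CPM with Postn but 1.82 CPM in the stricter set, and Thbs1, thrombospondin, at 34.1 and 79.1 CPM. Cilp was at 157 CPM without and 307 CPM with Postn, a ratio of -0.97 (-1.18 to -0.76), and Meox1 at 73.2 and 145 CPM, a ratio of -0.98 (-1.30 to -0.69). Nox4, an oxidase that makes hydrogen peroxide, had 187 and 341 CPM.

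The matrix list was lower without Postn by a median of -0.44, with 38 of 40 genes lower, against a median of 0.03 over all genes measured. Col1a1 had 332 CPM without and 529 CPM with Postn in TAC, and 283 and 426 CPM in TAC+ART. Col3a1 had 688 and 1008 CPM in TAC, and 584 and 817 CPM in TAC+ART. The 14 genes low under TAC were at like levels in both, with a median of 0.12 in TAC and 0.23 in TAC+ART. In the TAC+ART library 3 of 4445 genes were 2-fold higher without Postn (0.0675%) and 4 lower (0.0900%). Postn split the barcodes and those with it were deeper, so these values are descriptions.

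The genes highest without Postn in TAC are known mainly from other cells. Sla, an adaptor of lymphoid and myeloid cells, had 61.6 CPM without and 19.5 CPM with Postn, and 1.82 CPM in the members with little other-type RNA. Wdfy4, needed for antigen presentation by dendritic cells, had 165 and 53.6 CPM, and 3.65 CPM in that stricter set. The next highest, Ciita, Nrxn3, Plbd1, Pcdh15, Ptpn22 and Smoc1, were at 5.47, 10.9, 12.8, 3.65, 0 and 1.82 CPM in it.

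Immune genes were likewise among the highest in TAC over Sham. Ptprc, the pan-leukocyte antigen Cd45, had 113, 318 and 32.8 CPM over all members and 20.1, 20.1 and 10.7 CPM in those with little other-type RNA. Themis and Skap1, of T cell receptor signalling, had 6.91, 77.6 and 2.94 CPM and 38.7, 117 and 6.86 CPM over all members, and 1.55, 1.82 and 0 CPM and 5.80, 1.82 and 0.667 CPM in the stricter set. Runx1, a factor of blood cells that is also listed for activated fibroblasts, had 90.3, 384 and 49.95 CPM and then 13.5, 41.96 and 12.7 CPM. The unnamed transcript D5Ertd615e had 42.4, 78.3 and 4.41 CPM and then 5.03, 3.65 and 2.002 CPM. Fyb, an adaptor of T cells and myeloid cells, had 65.6, 282 and 36.2 CPM and then 15.9, 27.4 and 6.67 CPM, and Sorl1, a sorting receptor, 12.6, 53.7 and 7.35 CPM and then 5.03, 9.12 and 2.002 CPM. The lymphatic gene Reln had 42.4, 87.7 and 10.3 CPM and then 2.71, 12.8 and 7.34 CPM. In contrast Timp1 had 9.28, 58.4 and 5.34 CPM and Serpina3n 25.1, 120.4 and 18.02 CPM in the stricter set, levels like those over all members. Adamtsl2 had 152, 254 and 18.02 CPM there, above its levels over all members in each library.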

How the data were processed

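RNA was measured with the 10x Genomics droplet assay in 3 libraries, each of 3 pooled hearts. The authors deposited whole-number UMI counts for each of 29994 genes and 18021 barcodes. Per the submitters' processing notes, reads were handled with Cell Ranger and Seurat on mm10, with no versions given in the sources used here. All deposited barcodes were read with no further filter. UMIs were summed over members and divided by the members' total (CPM). Each sum had 0.5 UMIs added before the log2 ratio was taken. Their exact conditional binomial intervals, the Poisson intervals of CPM and the Clopper-Pearson intervals of shares have 95% confidence and cover counting error only. A gene counted as higher or lower from 2-fold, and a list member as measured from 20 UMIs in both libraries together. The endothelial and macrophage gates mirror the fibroblast gate (their own genes at least 4 UMIs and 2 times the others), and the cardiomyocyte gate takes Ttn from 2% of UMIs. The ratio code was tested on simulated data with known folds.

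The members, gene lists and alternatives were chosen with earlier results of these data known. Genes were named from the 12 highest and 12 lowest of TAC over Sham and of TAC+ART over TAC, the 6 and 6 of TAC+ART over Sham, the 8 and 8 of members over fibroblasts with Postn in TAC, and up to 4 of each list, besides a few always given. Genes over 10-fold below another gate were passed over. Results of 2 genes are not reported here. Doublets were kept, since the rule keeps them. As an alternative, Scrublet's score (scanpy 1.11.5) removed 376 barcodes in TAC+ART, 440 in TAC and 113 in Sham, of which 50, 27 and 21 were members. Other alternatives varied thinning, depth, the Postn and F limits, scaling, the added count and the gene filter. Promoters are RefSeq sequences on GRCm38.p6.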

Additional observations from a re-analysis of the deposited data

How the results depend on the processing

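No paired analysis was possible because each group was 1 library, and for the same reason no library could be left out. Of the named gene ratios whose interval left out 0, only Cd14 in TAC over Sham changed sign, to -0.13 in the members with little other-type RNA. Among ratios whose interval spanned 0, those of Arntl and Kcnip1 in TAC+ART over Sham, Ly96 in TAC over Sham and Ly96 and Tlr4 in TAC+ART over TAC changed sign under 1 or more alternatives, Tlr4 to 0.48 in barcodes of 2000 to 6000 UMIs. Of the list medians, that of the basement membrane list in TAC over Sham changed sign, to 0.23 in the members with little other-type RNA. The medians near 0 that changed sign under 1 or more alternatives were those of growth factors and interferon genes in TAC over Sham, and of the NF-kB, TLR4 and resting lists in TAC+ART over Sham. Thinning to 1000 UMIs gave 362 genes lower in TAC than in Sham, 143 higher in TAC+ART than in TAC and 83 lower in TAC+ART than in Sham. Without over with Postn it gave 9 higher genes in TAC+ART, and 27 higher and 34 lower in TAC. Barcodes of 2000 to 6000 UMIs gave 5 higher genes without Postn in TAC+ART and 8 lower in TAC. Allowing 1 Postn UMI put the share of gated fibroblasts at 53.7% in TAC+ART and 28.6% in TAC, with 31 genes higher and 11 lower without Postn in TAC+ART, and 25 and 10 in TAC. Postn at 0 after thinning to 1500 UMIs gave shares of 49.4% and 28.0%, 75 genes lower in TAC+ART than in TAC, and 4 lower without Postn in TAC. F of at least 8 gave shares of 33.5% and 9.88%, and 22 genes higher and 5 lower without Postn in TAC. Without doublets, 5 genes were higher without Postn in TAC+ART and 23 in TAC, and the mean of the barcodes' own CPM gave 6 lower ones in TAC. A minimum of 20 UMIs alone, which admits more genes, gave 1443 higher and 796 lower in TAC than in Sham, 597 and 669 in TAC+ART than in TAC, and 894 and 361 in TAC+ART than in Sham. Without over with Postn it gave 167 and 192 in TAC+ART, and 334 and 391 in TAC. In the members with little other-type RNA, an alternative chosen after the data were seen, the shares were 29.6%, 6.52% and 32.9% in TAC+ART, TAC and Sham. Over the genes measured in all members, the matrix and resting medians of TAC over Sham were then 1.32 and -0.13, and those of TAC+ART over TAC -0.46 and 0.38. Over the genes compared in all members (4824 for TAC+ART over TAC, in place of the 4492 of this set that gave 91), 143 were higher in TAC+ART than in TAC, 1 was higher without Postn in TAC+ART and 39 were lower without Postn in TAC. The cause of these moves was not tested. Other gene ratios that moved by over 1.5 times were, after thinning to 1000 UMIs, 1.74 for Arntl, -2.08 for Fam13a and -1.76 for Ciart in TAC over Sham, -2.79 for Lox in TAC+ART over TAC, 3.84 for Adamtsl2 in TAC+ART over Sham and -1.57 for Meox1 without over with Postn in TAC. With little other-type RNA, TAC over Sham was -2.26 for Gsta3 and -2.23 for Mme, and Tll2 was 2.12 in TAC+ART over TAC and, below 2-fold, -0.97 in TAC+ART over Sham. In barcodes of 2000 to 6000 UMIs Serpina3n was 2.03 in TAC over Sham. The ratio of Slc35f1, from 1 UMI in TAC, was -3.70 when 1 Postn UMI was allowed, and that of Ptgfr, from 4, was -2.73 after thinning to 1000 UMIs. The TAC members, with 1378934 UMIs the fewest, limit the precision of every ratio they enter.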

Other observations

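Within a library, the members with little other-type RNA that held at least 3 Kcnip1 UMIs were set beside those with none. In TAC+ART there were 172 and 276 of these, at median depths of 5107 and 4454 UMIs, and in Sham 89 and 211, at 4690.0 and 3873. TAC had 4 with at least 3 UMIs and was not compared. Kcnip1 chose the barcodes, so the values are descriptions. In TAC+ART the Kcnip1-rich barcodes were highest in Dok6, an adaptor of receptor tyrosine kinases, at 114.51 CPM against 16.4 CPM in those without Kcnip1, a log2 ratio of 2.78 (2.12 to 3.55). Tenm4, a teneurin adhesion protein, stood at 88.6 and 14.1 CPM. Of the 14 genes low under TAC, Gm4956 (387 and 138 CPM) and Tll2 (176 and 64.8 CPM) were among the 8 highest. The lowest were Thsd7b at 5.40 and 55.4 CPM and Plxna4, a semaphorin co-receptor, at 39.97 and 198 CPM. In Sham, Rgs7, a regulator of G protein signalling, stood at 309 and 97.4 CPM, and in TAC+ART at 221 and 73.4 CPM. Il33, an alarmin of fibroblasts, stood at 140.5 and 52.1 CPM in Sham. Inmt lay the other way there, at 37.5 and 151 CPM, although both Inmt and Kcnip1 were low in TAC.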
